A study of Mus musculus with 2 samples.

Results

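The genes described here encode the subunits, assembly chaperones, activators and inhibitor of the proteasome, chosen from the deposited gene table by symbol: every gene named Psma, Psmb, Psmc, Psmd, Psme or Psmf with a number, except the immunoproteasome genes Psmb8, Psmb9 and Psmb10. Of 22216 gene rows in the table, 41 met this rule, and 39 of them reached an RPKM (reads relative to gene length and to the size of the library) of 1 in either library. The other two were Psma8 and Psmb11. The rule uses no measured value.

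RNA sequencing of spleen compared mice of the genotype NOD.g7 with mice of the genotype NOD.L7, with 1 library per genotype, each from the pooled spleens of 3 mice. NOD is the non-obese diabetic mouse, an inbred model of autoimmune diabetes. The labels give neither age nor treatment, and do not spell out g7 or L7. With 1 library per genotype there is no spread between libraries, so no test between genotypes was possible, and every difference below is one between these 2 libraries.

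The proteasome is the cell's main machine for degrading proteins tagged with ubiquitin. Its 20S core is a barrel of stacked rings, in which outer rings of alpha subunits gate the entrance and inner rings of beta subunits hold the cutting sites. A 19S cap, made of a base with a ring of ATPases and a lid, recognises, unfolds and feeds in the tagged protein. In immune tissue part of the core carries interferon-inducible beta subunits in place of the constitutive ones, and this form is known for trimming peptides for MHC class I. The label of constitutive subunits is thus not exact for every gene chosen, since Psme1 and Psme2, which encode an activator of the core, are known to be induced by interferon gamma.

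The spleen libraries carried proteasome RNA at nearly equal levels. Log2 ratios are those of NOD.L7 over NOD.g7 after adding 1 to each RPKM, so a negative value means a lower level in NOD.L7. The 39 subunit genes had a median log2 ratio of -0.02, and the whole range ran from -0.17 for Psma5 to 0.15 for Psmc6. None of the 39 reached an absolute log2 ratio of 1, a size that 0.709% of the 11141 genes kept by the same RPKM filter reached. None reached 0.25 (1.19-fold) in either direction, against 8.82% of all kept genes at or above 0.25 and 4.74% at or below -0.25, and against 8.04% in either direction among the 7500 kept genes whose mean RPKM lay within the range of the proteasome genes.

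Plain RPKM values differed by less than 10% between the libraries for 37 of the 39 genes (94.9%), against 65.8% of all kept genes. The share was 76.4% among the 7500 genes of like level. The median difference, regardless of sign, was 2.44% for the proteasome genes, 4.98% for the genes of like level and 6.34% for all kept genes. The standard deviation of the log2 ratios across the proteasome genes was 0.06, beside 0.19 across the genes of like level and 0.23 across all kept genes. These standard deviations are across genes and not across mice.

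**Figure D1:**
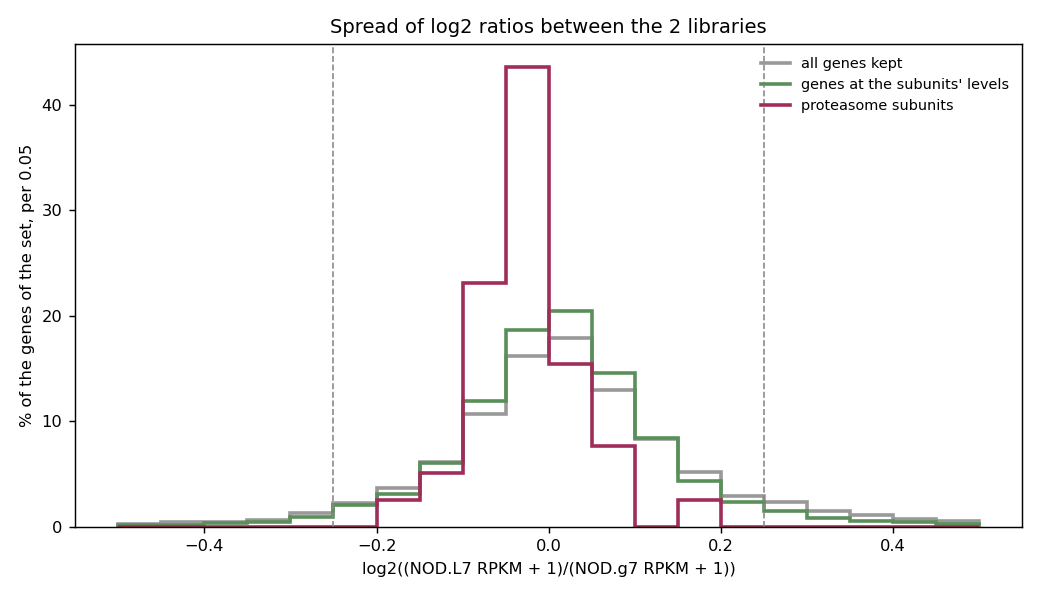
Distribution of log2 ratios between the 2 spleen libraries (x axis) as the share of genes in each bin of 0.05 (y axis) for all 11141 kept genes, the 7500 genes at the level of the proteasome genes and the 39 proteasome genes. Dashed lines mark -0.25 and 0.25, and all 39 proteasome genes lie between them; genes beyond -0.5 or 0.5 are not drawn.

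Within this narrow range the proteasome genes lay slightly to the NOD.L7-lower side. A total of 29 of 39 (74.4%) had a log2 ratio below 0, against 43.8% of all kept genes and 44.7% of the genes of like level. Their RPKM values summed to 1971 in NOD.g7 against 1929 in NOD.L7, a fold of 0.979. The depth of each library was worked out from the values themselves, at 9.13 Gb of sequence in NOD.g7 and 12.1 Gb in NOD.L7. The number of fragments behind each value also rests on the longest annotated transcript and on an assumed 200 bases per fragment, since the sources used here give neither gene lengths nor read layout. It was put at 773 to 14111 per proteasome gene in NOD.g7 and 961 to 17779 in NOD.L7, and gives a 95% counting interval for each fold (L7 RPKM over g7 RPKM) that leaves out variation between mice. This interval excluded 1 for 10 of the 39 genes, wholly below 1 for 9 and above 1 for Psmc6 alone. The count was 16 with 100 bases per fragment and 6 with 400, so intervals that end close to 1, such as those of Psma1, Psmb4 and Psme2, depend on this assumption. Among 10075 kept genes with a length to compute it from, the interval excluded 1 for 49.7%, with 20.1% wholly below 1 and 29.6% wholly above.

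**Figure D2:**
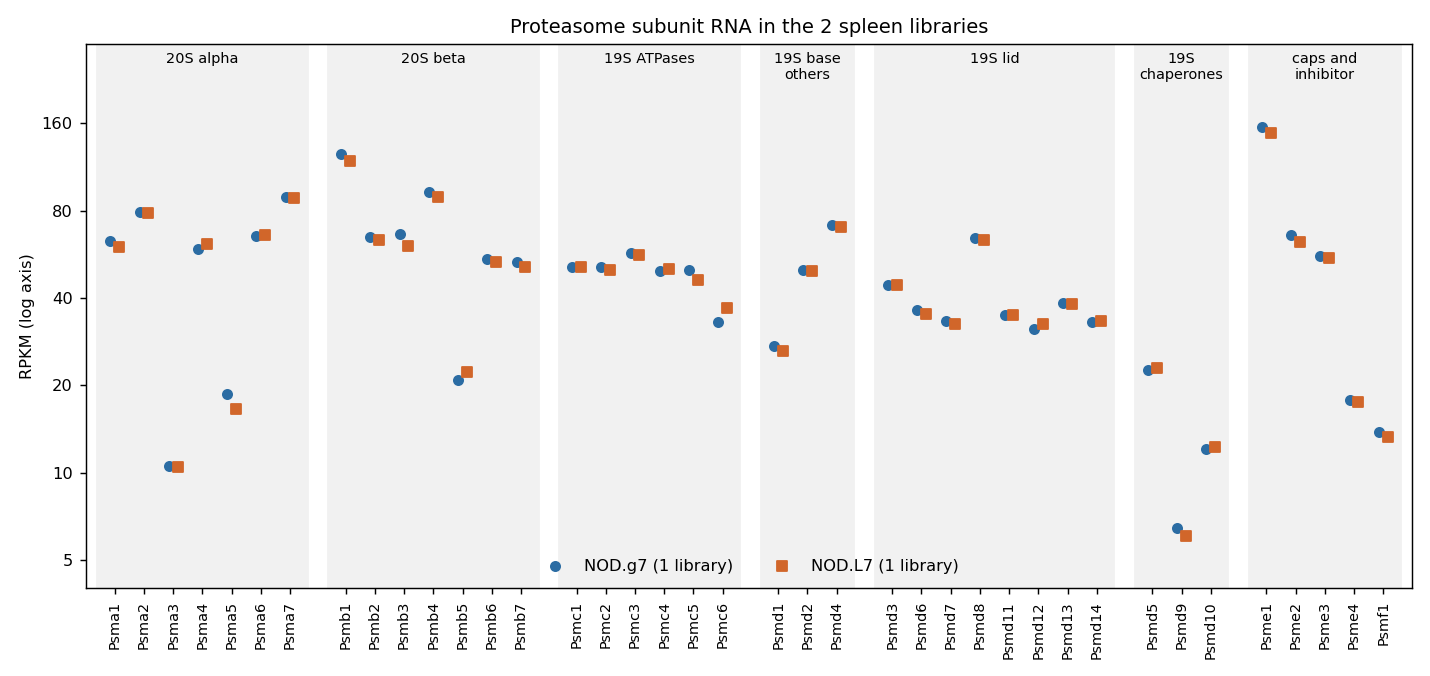
RPKM on a log axis (y) of each of the 39 proteasome genes (x, grouped by place in the complex) in the NOD.g7 library (circles) and the NOD.L7 library (squares). The 2 marks of a gene nearly coincide, while genes differ among themselves from 6.43 for Psmd9 to 156 for Psme1 in NOD.g7.

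The alpha ring of the 20S core was represented by 7 kept genes, with a median log2 ratio of -0.01. Psma7 was the highest at 89.0 RPKM in NOD.g7 against 88.3 in NOD.L7, and Psma2 followed at 78.9 and 78.7. Psma6 was at 65.3 and 66.1 and Psma4 at 59.2 and 61.5, the only alpha genes above 0 on the log2 scale, though Psma6 was at -0.003 with a TMM scaling factor. The fold intervals of all these included 1. Psma1 (chromosome 7, 121408064 to 121419630 in mm9) was at 63.1 and 60.1, a fold of 0.953 with an interval of 0.912 to 0.997.

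Psma5 (chromosome 3, 108059844 to 108082870) had the lowest log2 ratio of all 39 genes. It was at 18.7 in NOD.g7 against 16.6 in NOD.L7, a fold of 0.885 with a counting interval of 0.815 to 0.961. Psma3 was the lowest alpha gene by level, at 10.5 in both libraries. The alpha subunits enter the ring in equal number, yet their RNA levels spanned 8.44-fold in each library. Both low genes have near-identical sequence elsewhere in the mouse genome: at 95% identity or more over at least 200 bases, Psma3 matched transcripts of 4 other annotated genes, 3 of them pseudogenes, and Psma5 matched 2 pseudogenes. The sources used here do not give how reads with several matches were counted, so the levels of such genes are uncertain, and the part of the copies in these levels was not tested. In all, 9 of the 39 genes had such a match, with a median RPKM of 49.9 in NOD.g7, beside 50.5 for the 30 without one. The 9 were Psma3, Psma4, Psma5, Psmb3, Psmb5, Psmc1, Psmd2, Psmd11 and Psme2.

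Psma8 encodes an alpha subunit known from the testis, and Psmb11 a beta subunit known from the cortical epithelium of the thymus. Psma8 was at 0.363 in NOD.g7 against 0.146 in NOD.L7, from about 32 and 17 fragments, and failed the filter. Psmb11 was listed at 0 in NOD.g7 and at 2e-05 in NOD.L7, far below 1 fragment. Neither tissue-restricted subunit was thus at an appreciable level in either spleen library.

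The beta ring had 7 kept genes and a median log2 ratio of -0.06. The highest level among the core genes chosen by the rule was that of the non-catalytic Psmb1, at 125 in NOD.g7 against 119 in NOD.L7 (fold 0.948, interval 0.925 to 0.972). Also non-catalytic, Psmb4 was at 92.6 and 88.9, and Psmb2 at 64.9 and 63.2. Psmb3 (chromosome 11, 97564748 to 97574814) was at 66.2 and 60.2, a fold of 0.909 with an interval of 0.874 to 0.946, the second lowest log2 ratio of the 39 genes. It matched 3 pseudogenes by the sequence criterion above. Of the 7 beta genes 6 were below 0 on the log2 scale, and the intervals of Psmb1, Psmb3, Psmb4 and Psmb7 lay below 1.

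Proteins are cut by 3 of the beta subunits: Psmb6 (beta 1) cuts after acidic residues, Psmb7 (beta 2) after basic residues and Psmb5 (beta 5) after hydrophobic residues. Psmb6 was at 54.6 in NOD.g7 against 53.2 in NOD.L7. Psmb7 was at 53.3 and 51.1, with a fold of 0.959 (interval 0.930 to 0.990). Psmb5 (chromosome 14, 55232957 to 55236832) was the exception in level and direction, at 20.9 and 22.3, a fold of 1.07 whose interval of 0.977 to 1.17 included 1. Psmb5 also has a near-identical pseudogene, matched over 796 bases. Without core genes that have such a match, 9 alpha and beta genes remained. They spanned 53.3 to 125 in NOD.g7 and 51.1 to 119 in NOD.L7, a 2.35-fold and 2.32-fold range. Of the core genes left out, Psma4 (59.2 and 61.5) and Psmb3 (66.2 and 60.2) lay inside this range. Psma3, Psma5 and Psmb5 lay below it, and the part of the copies in this was not tested.

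Each catalytic subunit has an interferon-inducible counterpart that replaces it in the immunoproteasome. Psmb9, the counterpart of Psmb6, was at 96.3 in NOD.g7 against 88.6 in NOD.L7, and Psmb10, that of Psmb7, at 76.4 and 77.6. Psmb8, the counterpart of Psmb5, was at 172 and 154. RPKM is scaled to length, so the genes of a pair can be set side by side within a library. The immunoproteasome gene was the higher one at all 3 sites in both libraries, by 1.76-fold in NOD.g7 and 1.67-fold in NOD.L7 at beta 1 and by 1.43-fold and 1.52-fold at beta 2. At beta 5 the ratio was 8.22 in NOD.g7 against 6.89 in NOD.L7, and this ratio carries the uncertainty of the Psmb5 level. The ratio was thus lower in NOD.L7 at beta 1 and beta 5, with quotients of 0.945 and 0.838, and higher at beta 2, with 1.06. No counting interval is given for these quotients. The counting intervals of the single folds overlapped at beta 1 (Psmb9 0.898 to 0.942, Psmb6 0.923 to 1.03). They also overlapped at beta 2 (Psmb10 0.978 to 1.06, Psmb7 0.930 to 0.990). At beta 5 they did not (Psmb8 0.874 to 0.913, Psmb5 0.977 to 1.17). Overlap of 2 intervals does not show that their quotient lies within counting error, so no contrast between the sites is drawn from it.

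**Figure D3:**
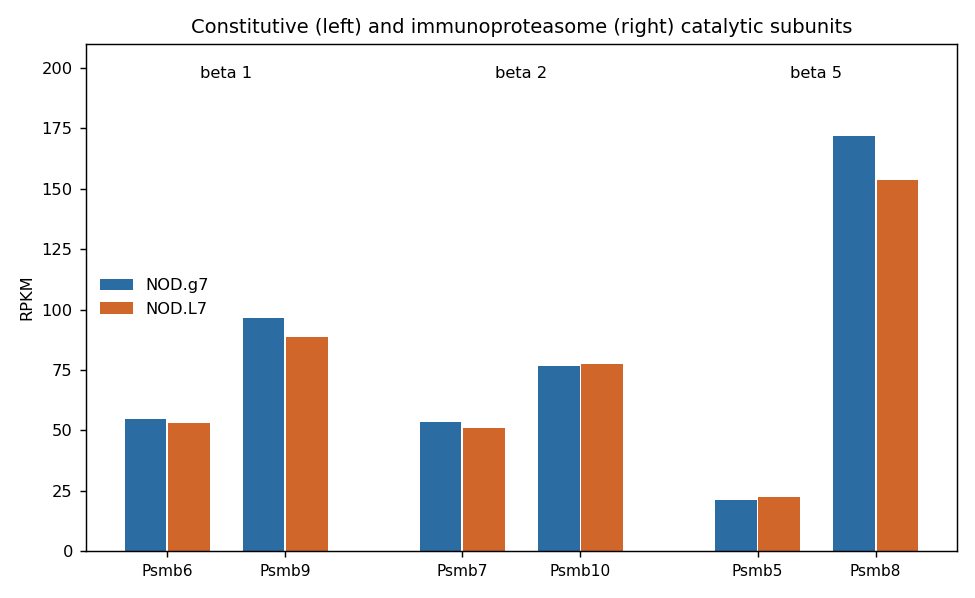
RPKM (y axis, from 0) of the constitutive subunit and its immunoproteasome counterpart at the 3 catalytic sites (x axis), with 1 bar per library and no error bars, since each bar is 1 library. At every site the counterpart on the right is higher, most of all at beta 5, where Psmb8 is at 172 and 154 and Psmb5 at 20.9 and 22.3.

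The 6 ATPases of the 19S base, which form the ring that unfolds the substrate, lay close to one another in level. In NOD.g7 they ranged 1.74-fold, from 33.1 for Psmc6 to 57.4 for Psmc3, and in NOD.L7 1.53-fold, from 36.9 to 56.5. Psmc1 was at 51.2 and 51.1, Psmc2 at 51.3 and 50.0 and Psmc4 at 49.6 and 50.4. Their median log2 ratio was -0.01. The ATPase list nevertheless held the gene with the highest log2 ratio of all 39 and the one with the third lowest.

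Psmc6 (chromosome 14, 45949499 to 45968746) was at 33.1 in NOD.g7 against 36.9 in NOD.L7, a fold of 1.12 with a counting interval of 1.07 to 1.17. It was the least abundant ATPase in both libraries, and no near-identical gene was found for it. Psmc5 (chromosome 11, 106117499 to 106124426) was at 49.8 and 46.1, a fold of 0.925 with an interval of 0.883 to 0.970. The ATPases stand in the ring in equal number, and Psmc6 and Psmc5 differed in opposite directions between these libraries.

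Of the other subunits of the base, Psmd2 and Psmd1 are its large scaffold proteins and Psmd4 is a receptor for ubiquitin chains. Psmd4 was at 71.5 in NOD.g7 against 70.3 in NOD.L7, Psmd2 at 49.9 and 49.7, and Psmd1 at 27.4 and 26.3. All 3 were below 0 on the log2 scale, at a median of -0.02, and all fold intervals included 1. Psmd1 is 1 of 4 proteasome genes whose row overlaps that of another gene, here Htr2b, at 0.0414 and 0.0634. The rows of Cdkn2d, at 1.78 and 1.62, and Mir684-1, at 0.160 and 0.241, span Psma4 and, for the latter, Psmb7 and Psmd14, so all overlapping rows were at low levels.

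The lid holds the enzyme that strips off the ubiquitin chain. Its 8 genes had log2 ratios between -0.05 and 0.05 with a median of -0.01, and each interval included 1. Psmd14, the deubiquitinase itself, was at 33.2 in NOD.g7 against 33.3 in NOD.L7, and its partner Psmd7 was at 33.3 and 32.5. Among the scaffold subunits, Psmd8 was the highest at 64.4 and 63.3, Psmd3 was at 44.2 and 44.4, Psmd6 at 36.3 and 35.1 and Psmd11 at 35.1 and 35.0. Psmd12 had the highest log2 ratio of the lid, at 31.3 and 32.6.

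Psmd13, another scaffold subunit of the lid, lies in the distal part of chromosome 7 (148068293 to 148084541), at 38.4 in NOD.g7 against 38.1 in NOD.L7 (fold 0.992, interval 0.949 to 1.04). Among the 5 nearest kept genes on each side, Ifitm2 was at 30.5 and 63.3 and Ifitm1 at 6.81 and 17.8. Their log2 ratios were 1.03 and 1.27. Ifitm3, at 53.5 and 51.5 (-0.055), and Ifitm6, at 19.9 and 22.1 (0.14), lay beside them without such a difference. These belong to a family of related neighbouring genes, so their levels are uncertain. Psmd13 was the 1 proteasome gene of the 39 with a gene past an absolute log2 ratio of 1 among its 5 nearest on each side. The other chromosome 7 members, Psma1, Psmc4 and Psmd8, had none. Over all kept genes, 0.709% reached this size, so few such neighbours would be found near any set of this number of genes.

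The chaperones that assemble the 19S base had the lowest median RPKM of the groups, 12.1 in NOD.g7 and 12.3 in NOD.L7. Psmd5 was at 22.7 in NOD.g7 against 23.0 in NOD.L7, Psmd10 (gankyrin) at 12.1 and 12.3 and Psmd9 at 6.43 and 6.04. Their median log2 ratio was 0.02 and their intervals included 1. Psmd9 was the least abundant of the 39 genes in both libraries, and its fold of 0.939 had a wide interval of 0.853 to 1.03, resting on about 773 and 961 fragments.

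The last group holds the alternative activators of the core and its inhibitor, and all 5 of these genes were below 0, at a median log2 ratio of -0.05. Psme1 and Psme2 encode the alternating subunits of PA28, the cap known from antigen processing. Psme1 was the most abundant of all 39 genes, at 156 in NOD.g7 against 148 in NOD.L7 (fold 0.951, interval 0.931 to 0.973). Psme2 was at 66.1 and 62.5 (fold 0.946, interval 0.901 to 0.994), a value made uncertain by the near-identical gene Psme2b. Psme3, the nuclear form of the activator, was at 56.0 and 55.0, Psme4, which encodes the large activator PA200, at 17.8 and 17.5, and Psmf1, which encodes the inhibitor PI31, at 13.8 and 13.2. The intervals of these last genes included 1.

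**Figure D4:**
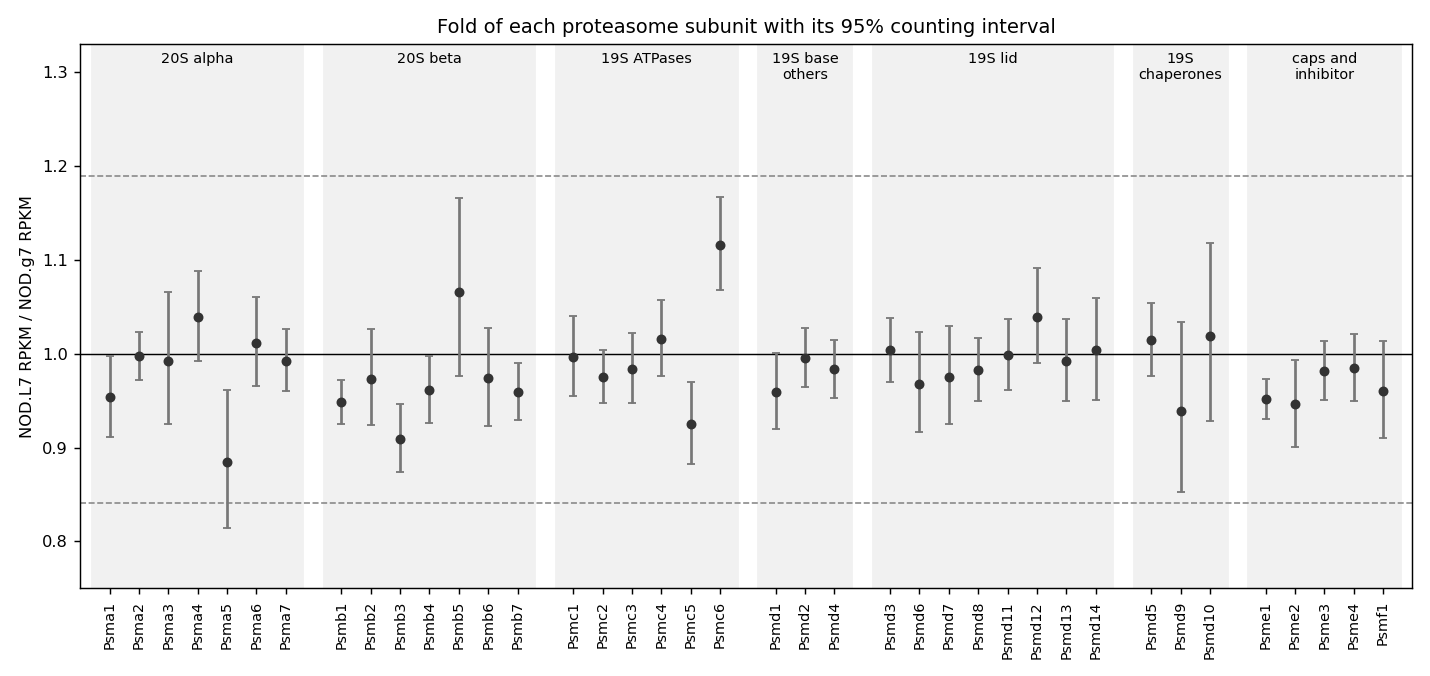
Fold of NOD.L7 RPKM over NOD.g7 RPKM (y axis) for each of the 39 proteasome genes (x axis, grouped by place in the complex), with bars for the 95% counting interval, which leaves out variation between mice. Dashed lines mark a log2 size of 0.25 (1.19-fold), which no gene reaches; Psmc6 at 1.12 and Psma5 at 0.885 are the extremes.

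Proteasome genes are known to be induced together when proteasome activity falls, through the transcription factor Nfe2l1 (also called Nrf1) acting at antioxidant response elements, and CCAAT boxes bound by NF-Y are also known in their promoters. Promoter sequences of RefSeq on GRCm38.p6 were matched to 33 of the 39 genes (36 start sites), and the 250 bases before each start were searched on both strands. The element core TGACNNNGC was present at 5 of the 36 starts (13.9%), against 10.2% of all 32851 promoters and 12.1% of the 10137 of kept genes. The CCAAT box was present at 12 of 36 (33.3%), against 33.8% of all promoters and 35.4% of those of kept genes. These letters were therefore about as common before proteasome genes as before other genes. The stretches around the 5 element cores are printed because they include those of the 3 genes with the highest log2 ratios, Psmc6, Psmb5 and Psmd12. Capitals mark the core in either orientation, and each stretch reads 5′ to 3′ on the gene's strand, ending before the start of the gene.
Psmc6 (chr14:45329574-45329635, plus strand): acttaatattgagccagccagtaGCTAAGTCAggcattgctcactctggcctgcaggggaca
Psmb5 (chr14:54618004-54618072, minus strand): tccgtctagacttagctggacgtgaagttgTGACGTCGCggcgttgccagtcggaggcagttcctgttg
Psmd12 (chr11:107479278-107479319, plus strand): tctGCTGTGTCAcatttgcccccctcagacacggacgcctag
Psmb6 (chr11:70525318-70525356, plus strand): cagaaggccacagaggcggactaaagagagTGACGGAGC
Psmd9 (chr5:123228129-123228189, plus strand): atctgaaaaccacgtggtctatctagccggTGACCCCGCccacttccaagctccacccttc

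Psmc6, Psmb5 and Psmd12 had log2 ratios of 0.15, 0.09 and 0.05, while Psmb6 and Psmd9, which also hold the core, had -0.04 and -0.08. This grouping was seen after the values were known and was not tested. The cores lie at different distances, starting 9 bases before the gene start in Psmb6, 31 in Psmd9, 47 in Psmb5, 227 in Psmc6 and 247 in Psmd12. A match of these letters does not show a bound site.

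The genes listed for transcription of proteasome genes and for processing were mostly at similar levels in both libraries. Nfe2l1 itself was at 33.9 in NOD.g7 against 33.3 in NOD.L7. Of the 9 genes listed for transcription and processing, none reached a log2 size of 0.25, and the median was -0.01. The one furthest from 0 was Nfe2l2, the related factor of the oxidative stress response, at 37.6 and 44.1 (log2 ratio 0.22). Its fold of 1.17 had a counting interval of 1.13 to 1.22, and its log2 ratio lay above those of all 39 proteasome genes. Ngly1, the deglycosylase that Nfe2l1 needs for activity, was at 16.0 and 17.2 (0.10), and the NF-Y subunit gene Nfyc at 16.9 and 15.7 (-0.10).

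Ddi2 encodes the protease that cleaves Nfe2l1 into its active form. It was at 22.9 in NOD.g7 against 26.5 in NOD.L7, a fold of 1.16 with a counting interval of 1.13 to 1.19 and a log2 ratio of 0.20. It stood among 14 genes of proteasome-associated proteins and shuttle receptors, whose median was -0.004. The ubiquitin ligase gene Ube3c was at 13.4 and 14.5.

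Proteasome subunits and assembly chaperones outside the symbol rule had a median log2 ratio of 0.03 over 7 kept genes, with none past 0.25. The core assembly chaperone genes Psmg4 and Psmg1 were at 20.5 and 17.8 (-0.20) and at 13.1 and 14.1 (0.09), NOD.g7 first. The ubiquitin receptor gene Adrm1 was at 12.2 and 13.0 (0.08). Psmg4 lay lower than every one of the 39 genes on the log2 scale, with a fold of 0.867 and an interval of 0.770 to 0.977.

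Upstream of the proteasome the picture was similar. Of 8 genes for ubiquitin and for enzymes that activate ubiquitin or NEDD8, none passed 0.25, and the median was 0.02. Uba3, of the NEDD8-activating enzyme, was at 16.5 and 18.5, and Rps27a, a ubiquitin and ribosomal protein fusion gene, at 14.2 and 15.4. Rps27a has processed copies elsewhere in the genome, so its level is uncertain. The 8 genes for the p97 segregase and its cofactors had a median of -0.03, with Ubxn4 at 27.2 and 30.7, Ubxn1 at 82.2 and 76.6 and Ufd1l at 19.5 and 18.6.

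The COP9 signalosome is a complex related in structure to the 19S lid that acts on cullin ligases. Its 9 genes had log2 ratios between -0.07 and 0.05, beside -0.05 to 0.05 for the lid. Cops6 was at 42.0 and 39.9, Cops3 at 32.3 and 30.8 and Cops7a at 19.7 and 20.4. In all, none of the 58 pathway genes outside the rule, the immunoproteasome genes included, reached a log2 size of 0.25, against 13.6% of all kept genes.

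**Figure D5:**
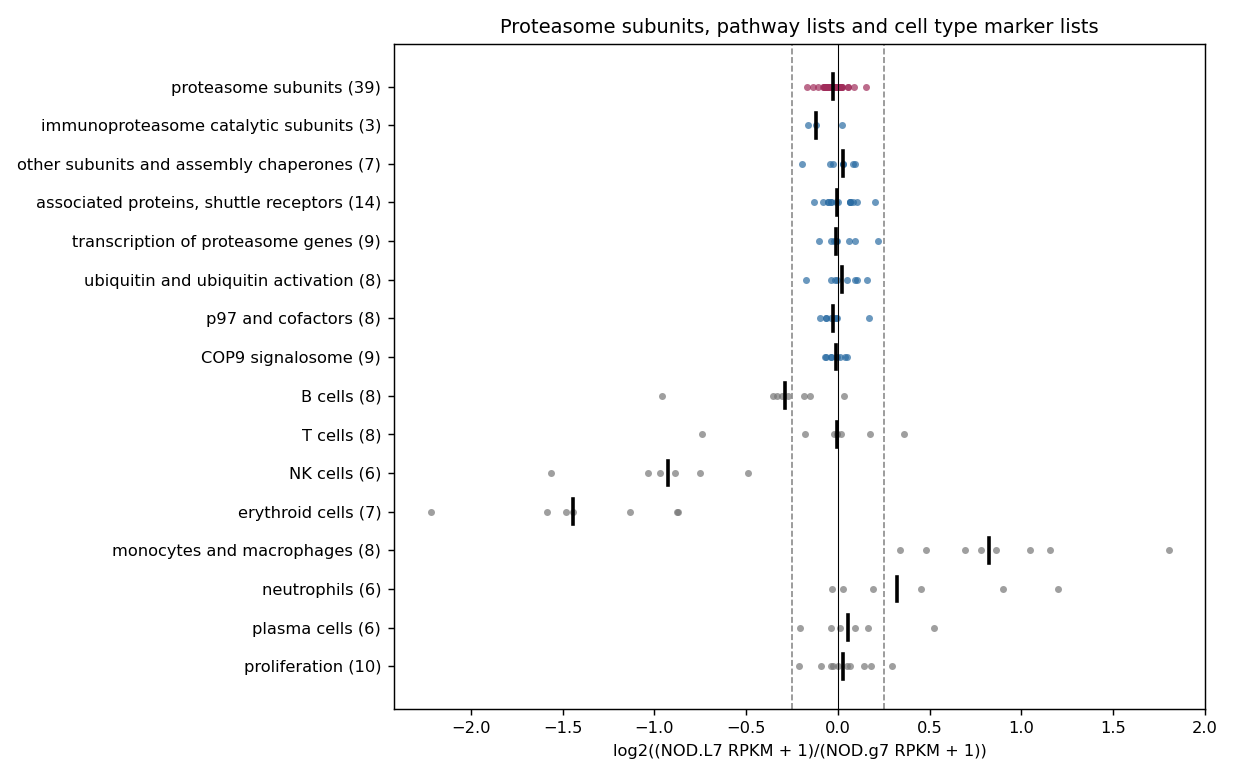
Log2 ratios between the libraries (x axis) of the kept genes in each list (rows, number of genes in brackets), with a black bar at each list's median; the proteasome genes are on top, the pathway lists next and the marker lists last. Dashed lines mark -0.25 and 0.25: the proteasome and pathway lists stay between them, while the NK cell, erythroid and macrophage markers lie outside.

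The flat proteasome RNA stood beside marker genes that differed between the same 2 libraries. B cell and T cell markers were present as the spleen label implies (8 of 8 each), and none of 6 pancreas markers was kept, with Cpa1, Ctrb1, Ins1 and Ins2 listed at 0 in a library. All 7 kept erythroid markers and all 6 NK cell markers were at or below a log2 ratio of -0.25, with medians of -1.45 and -0.93, and their summed RPKM went from 143 to 59.2 and from 175 to 79.6. All 8 macrophage and monocyte markers were at or above 0.25, at a median of 0.82, with sums of 250 and 437. Neutrophil markers were split, with 3 of 6 at or above 0.25 and 1 below 0, at a median of 0.32 and sums of 789 and 1031. In bulk spleen, fewer cells of a type and less RNA per cell cannot be told apart.

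B cell markers, which had the highest summed RPKM of the marker lists (2661 in NOD.g7 against 2164 in NOD.L7), had a median of -0.29, with 5 of 8 at or below -0.25. They were lower in the same library as the immunoproteasome genes Psmb8 and Psmb9 and the PA28 genes Psme1 and Psme2. The immunoproteasome gene Psmb10 was not lower there, at 76.4 in NOD.g7 against 77.6 in NOD.L7. The part of B cells in these values was not tested. T cell markers had a median of -0.01 (sums 1035 and 1032), but the co-receptor genes went opposite ways beyond 0.25, with Cd8a at 53.7 and 31.7 and Cd4 at 106 and 136. Plasma cell markers had a median of 0.05 (408 and 489) and proliferation markers 0.03 (127 and 136), each with 1 gene at or above 0.25 and none at or below -0.25. Psmc5 lies near the B cell gene Cd79b on chromosome 11, which was at 651 and 511. Of the 10 nearest kept genes of Psmc5, 4 were beyond 0.25 in size, the most for any of the 39 genes. Psmd8 and Psmd14 had 3 each, and 26 of the 39 genes had at least 1 such neighbour. Among all kept genes, 13.6% reached this size.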

How the data were processed

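Total RNA of pooled spleens was sequenced from TruSeq libraries after RNeasy extraction, per the labels. The authors deposited 1 table of RPKM values with mm9 coordinates; the submitters' processing notes name CASAVA 1.8.2 and SAMtools 0.1.18. Gene models, strandedness and how multiply matching reads were counted: not given in the sources used here. The column headed NOD.LC7 was assigned to NOD.L7 and that headed NOD to NOD.g7.

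Genes reaching RPKM 1 in at least 1 library were analysed, and a pseudocount of 1 was added before log2 ratios, which understates changes of low genes. Sizes of 1 and 0.25 (log2) were used as fold rules. Depth was inferred from the spacing of low RPKM values of single-exon genes (23 values per library, 100% whole within 0.15): 9.13 Gb in NOD.g7 and 12.1 Gb in NOD.L7. Fragments were approximated with the longest GENCODE M21 transcript and 200 bases each, and folds given exact binomial (Clopper-Pearson) 95% intervals, which cover counting error only. Near-identical genes were sought with BLAST+ 2.17.0. Calculations used Python 3.11.15, pandas 2.3.3 and SciPy 1.17.1 and were tested on simulated data. Every kept member was named, and of each pathway list the 3 genes with the largest absolute log2 ratio, plus Nfe2l1, which was added after its values were seen, as were the neighbouring genes, Cd4 and Cd8a. Some genes that this rule names are left out of the text. The members and lists were chosen with earlier results of these data known. Of the list genes, Paaf1 and Epb4.2 were not matched. Alternatives were other pseudocounts, filters and scalings and the removal of low members and of members with near-identical genes; the last, and other fragment lengths, were chosen after seeing the data.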

Additional observations from a re-analysis of the deposited data

How the results depend on the processing

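No paired analysis was possible because the groups share only replicate number 1, and leaving out a library would leave no comparison. The median log2 ratio of the proteasome genes was -0.02 as deposited and -0.04 with median centring or with a TMM factor on the RPKM values, and 29, 31 and 32 of 39 genes were then below 0. Without members that have a near-identical gene elsewhere, 22 of 30 were below 0, and without members under a mean RPKM of 20, 24 of 33 were. With no filter, 1 proteasome gene lay at or below -0.25, Psma8, which the filter removes by construction; no other alternative gave one. Over all genes, the number at an absolute log2 ratio of 1 or more was 166 with a pseudocount of 0.1, 124 with 0.5 and 52 with a filter at RPKM 5, against 79. That filter left 808 genes at 0.25 or more, against 1511. The number of proteasome genes whose counting interval excludes 1 was 16 with 100 bases per fragment and 6 with 400, against 10 with 200, alternatives chosen after seeing the data. Depth limits the folds of single members to about 2.22% to 9.6% to either side by counting alone, at 200 bases per fragment. Of the remaining values under these alternatives, 155 for medians, counts and catalytic pair ratios were labelled unchanged, as were 360 for single genes. The rule was within 1.5 times for counts and within the counting interval for values. No such interval is given here for medians or pair ratios. A log2 ratio labelled unchanged could still change sign, as those of Psmd3 and Psmd14 did, from 0.005 as deposited to -0.011 with median centring.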
